A study of Mus musculus with 24 samples.

Results

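The genes described here, 10 in number, belong to the transforming growth factor beta (TGF-beta) pathway and were followed in mouse macrophages: the ligand genes Tgfb1 and Tgfb2, the latent-ligand anchor gene Nrros, the receptor genes Tgfbr1 and Tgfbr2, the signal transducer Smad3, and the inhibitors Smad7, Ski, Skil and Pmepa1. They were taken by symbol from a gene count table of 47643 rows, and 10 of 10 had a row. Macrophages came from 2 sources, induced pluripotent stem cells (iPSC) and bone marrow. For each source, non-cocultured macrophages were collected on day 0 and co-cultured macrophages on days 3, 6 and 12, with 3 independent replicates a group and 24 libraries in all. The labels give no strain, sex or age and do not name the partner cells of the co-culture or say whether the macrophages were sorted from them. Every day 0 group was without co-culture and every later group with it, so co-culture and time in culture cannot be told apart.

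TGF-beta is made as a latent complex that anchor proteins such as NRROS hold at the cell surface and integrins open. The freed ligand is bound by the type II receptor (Tgfbr2), which activates the type I receptor (Tgfbr1). The type I receptor then phosphorylates SMAD3 and its relative SMAD2, which enter the nucleus with SMAD4. The pathway induces several of its own inhibitors, which act on the receptor, on the SMADs or in the nucleus. In the brain, TGF-beta signalling is known for maintaining the gene expression of microglia, the resident macrophages.

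The libraries held 5839316 to 11805478 counts, on between 15357 and 18321 genes with a count. The 12 macrophage markers, such as Cd68 and Csf1r, had counts in each of the 8 groups. Their summed level was 7610 to 34170 CPM (counts scaled to library size) in iPSC-derived and 26800 to 44640 CPM in bone marrow-derived libraries, and day 0 differed most, with 7610 to 10450 against 41840 to 44640 CPM. Markers of T cells and neutrophils summed to at most 1.39 CPM. The 8 fibroblast markers, collagens among them, went from 3.94 to 31.3 CPM on day 0 to 391 to 829 CPM on day 6 and 279 to 483 CPM on day 12 in iPSC-derived libraries. In bone marrow-derived libraries they went from 1.56 to 16.0 CPM on day 0 to 36.1 to 67.5 CPM on day 6, when Pdgfrb was at 0, and 111 to 206 CPM on day 12. The 8 astrocyte markers summed to 28.8 to 50.6 CPM on day 0 and 87.2 to 103 CPM on day 12 in iPSC-derived libraries, and to 15.1 to 23.9 and 65.6 to 93.0 CPM in bone marrow-derived ones. In iPSC-derived day 3 libraries they were at 21.6 to 33.3 CPM, with Aqp4 at 0. The 8 neuron markers summed to at most 2.95 CPM on day 0 and 10.2 to 60.4 CPM later. Oligodendrocyte lineage markers summed to 57.5 to 311 CPM and endothelial markers to 6.15 to 78.3 CPM over all libraries. In such bulk samples, fewer cells of a type and less RNA per cell cannot be told apart.

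By day 12 both receptor genes, Ski, Skil, Pmepa1 and Tgfb2 had risen in both sources. Smad3 passed the test in iPSC-derived macrophages only and Smad7 in bone marrow-derived macrophages only, while Tgfb1 and Nrros passed it in neither. The source difference in the day 12 change was called for neither Smad3 nor Smad7 by the edgeR quasi-likelihood test. It was 0.68 ± 0.41 SE (log2, iPSC minus bone marrow, adjusted p = 0.28) for Smad3 and -2.63 ± 1.10 (adjusted p = 0.097) for Smad7. The Skil rise in iPSC-derived macrophages had overlapping libraries and ended in some settings, given below. On day 12 against day 0, 7 of 10 genes rose in iPSC-derived macrophages (adjusted p below 0.05, edgeR quasi-likelihood test), beside 24.7% of the 15000 genes tested that changed in either direction. In bone marrow-derived macrophages 7 of 10 rose as well, beside 23.8% of all genes changing. None of the 10 was called lower in either source, although Tgfb1 in bone marrow-derived cells was called lower in some settings, given below. The median log2 fold change of the 10 genes was 1.34 in iPSC-derived cells, against 0.042 over all genes, and 1.68 in bone marrow-derived cells, against 0.044. On day 3, 6 genes rose and 0 were called lower in each source, beside 19.4% (iPSC) and 18.5% (bone marrow) of all genes changing. On day 6, 6 rose and 0 were called lower in iPSC-derived cells, beside 25.4% of all genes changing. In bone marrow-derived cells 8 rose and 0 were called lower, beside 19.6%. Tgfbr1, Ski, Pmepa1 and Tgfb2 rose on all 3 days in both sources. The day 3 calls of Tgfb2 in both sources and of Ski in bone marrow-derived cells ended in some settings. Pmepa1 and Tgfb2 were under the detection cutoff of 1.11 CPM in all 6 day 0 libraries and Smad7 in 4 of them. Pmepa1 and Tgfb2 thus entered the test only through their co-cultured libraries, and Smad7 mainly so. Against day 0 these genes could hardly be called lower. The 10 genes were also chosen with earlier results of these data known. Their counts and medians beside those of all genes are therefore descriptions only.

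**Figure D1:**
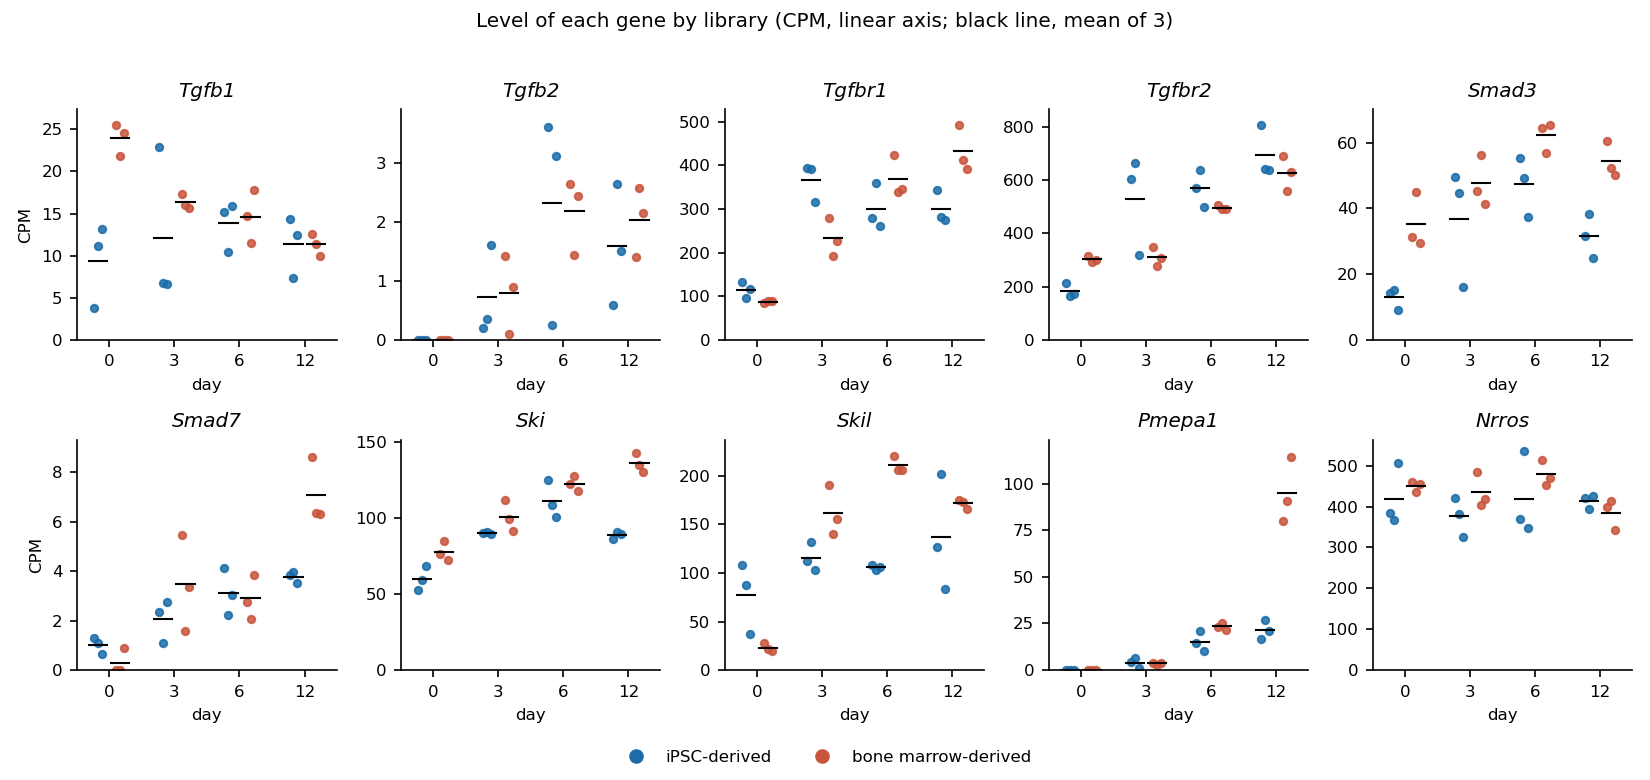
Level of each of the 10 genes in CPM (linear axis from 0) on days 0, 3, 6 and 12; each point is 1 library and each black line the mean of 3. Pmepa1 and Tgfb2 start at or near 0 in both sources, Skil starts lower in bone marrow-derived cells (19.4 to 27.4 CPM) than in iPSC-derived cells (36.9 to 108 CPM), and Nrros stays between 326 and 537 CPM throughout.

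Of the ligands, Tgfb1 (chromosome 7, 25687002 to 25705077, plus strand; this and all positions are in GRCm38) encodes the isoform that immune cells make. Day 0 iPSC-derived libraries held 3.83, 11.2 and 13.2 CPM, and day 0 bone marrow-derived libraries 25.5, 21.8 and 24.6 CPM. All 3 bone marrow libraries were above all 3 iPSC libraries, and the level was lower in iPSC-derived cells (log2 fold change -1.35 ± 0.42 SE, adjusted p = 0.013). Without iPSC day 0 replicate 1 the difference was -0.98 with an adjusted p of 0.079, and with the replicate block -1.09 with an adjusted p of 0.15. By day 12 the sources overlapped, at 14.4, 7.38 and 12.4 CPM in iPSC-derived and 12.6, 11.4 and 9.97 CPM in bone marrow-derived libraries (difference 0.01 ± 0.41, adjusted p = 1). Within the bone marrow source every day 3, day 6 and day 12 library was below every day 0 library. The day 12 change missed the threshold (-1.08 ± 0.41, adjusted p = 0.06). It passed with DESeq2 (adjusted p = 0.047), with no filter on low counts (0.024) and with only the groups compared (0.004). The day 6 change (-0.71 ± 0.41, adjusted p = 0.25) passed only in the last of these settings (-0.70, adjusted p = 0.031). In iPSC-derived cells Tgfb1 changed by 0.28 ± 0.42 from day 0 to day 12 (adjusted p = 0.68). One iPSC day 3 library stood apart at 22.9 CPM, beside 6.73 and 6.65 CPM in the other two. Without it, the day 3 level was lower in iPSC-derived than in bone marrow-derived cells (-1.28, adjusted p = 0.033), against -0.43 ± 0.41 with it (adjusted p = 0.54). On day 6 the libraries held 10.4 to 15.9 CPM and 11.5 to 17.8 CPM.

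Tgfb2 (chromosome 1, 186622792 to 186705989, minus strand) encodes an isoform best known from non-immune cells. It had 0 counts in all 6 day 0 libraries. On day 12 the iPSC-derived libraries held 0.599, 2.65 and 1.52 CPM (48 counts in all) and the bone marrow-derived ones 1.40, 2.58 and 2.16 CPM (64 counts). Against a floor of 3 counts over the day 0 group, day 12 was at least 15.35-fold higher in iPSC-derived cells (adjusted p = 0.0039) and at least 16.5-fold higher in bone marrow-derived cells (adjusted p = 0.0031). Day 6 was at least 22.05-fold and 18.2-fold higher, with 63 and 55 counts (adjusted p = 0.002 and 0.0035). The day 6 iPSC libraries were uneven, at 3.62, 0.248 and 3.12 CPM. Day 3 rested on 19 and 22 counts, at least 6.53-fold and 6.25-fold higher (adjusted p = 0.018 and 0.019). That iPSC call ended without day 0 replicate 1 or 2 or day 3 replicate 3 (adjusted p = 0.052, 0.054 and 0.083), and with only the groups compared (0.12). The bone marrow call ended without day 0 replicate 1, 2 or 3 or day 3 replicate 1 (adjusted p = 0.057, 0.06, 0.055 and 0.062), and with only the groups compared (0.051). Of its exon bases, 2.14% also belong to the predicted gene Gm29491, and read pairs over both genes are assigned to neither under the recorded counting settings.

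Both Tgfb2 and the summed fibroblast markers were higher on days 6 and 12 than on day 0, but within a group their order varied. The 3 levels of Tgfb2 on day 6 in iPSC-derived cells, 3.62, 0.248 and 3.12 CPM, came with summed fibroblast markers of 676, 391 and 829 CPM. In iPSC-derived day 12 libraries 0.599, 2.65 and 1.52 CPM came with 335.5, 279 and 483 CPM. On day 12 it stood at 1.40, 2.58 and 2.16 CPM in bone marrow-derived libraries with 206, 111 and 120 CPM of those markers. These orders rest on few Tgfb2 counts, 5, 28 and 15 in the iPSC-derived and 14, 26 and 24 in the bone marrow-derived day 12 libraries. The summed fibroblast markers were lower in the day 12 bone marrow libraries than in the day 6 iPSC libraries, while the Tgfb2 ranges overlapped. The part of fibroblast-marker and astrocyte-marker RNA in the Tgfb2 result was not tested.

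**Figure D2:**
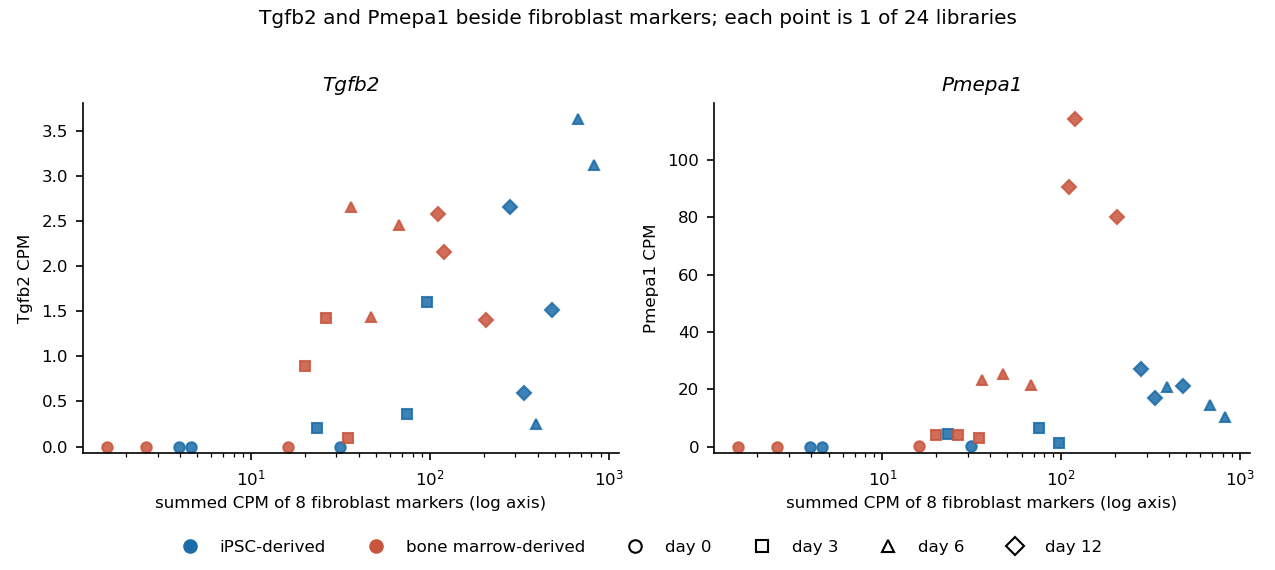
Tgfb2 (left) and Pmepa1 (right) in CPM against the summed CPM of 8 fibroblast markers (log axis); each point is 1 of 24 libraries, coloured by source and shaped by day. The day 12 bone marrow libraries have the highest Pmepa1 (80.0 to 114 CPM) at 111 to 206 CPM of fibroblast markers, while the day 6 iPSC libraries have 10.4 to 20.7 CPM of Pmepa1 at 391 to 829 CPM.

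Nrros (chromosome 16, 32142785 to 32165594, minus strand), whose protein tethers latent TGF-beta on macrophages and microglia, was called in none of the 15 contrasts. Day 0 libraries held 385, 367 and 506 CPM in iPSC-derived cells and 461, 437 and 456 CPM in bone marrow-derived cells. Day 12 libraries held 420, 393 and 425 CPM and 399, 413 and 342 CPM. The iPSC day 12 range lay inside the day 0 range, whereas each bone marrow day 12 library was below each day 0 library. The change from day 0 to day 12 was -0.02 ± 0.15 (adjusted p = 0.94) in iPSC-derived and -0.23 ± 0.15 (adjusted p = 0.3) in bone marrow-derived cells. On day 6 replicate 2 of the iPSC source was high, at 537 CPM beside 369 and 348 CPM, and without it the sources differed (-0.42, adjusted p = 0.048; -0.20 ± 0.15 with it, adjusted p = 0.47). Per exon length, Nrros stood at 39.7 to 121 times the level of Tgfb1 on day 0 in iPSC-derived libraries and 21.8 to 24.2 times in bone marrow-derived ones.

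The starts of the receptor genes, whose changes differed between the sources, are shown with that of Nrros, which did not pass the test. The 250 bases before the RefSeq start (GRCm38.p6, 5′ to 3′ on the gene's strand) are Tgfbr1 chr4:47352972-47353221 (plus), Tgfbr2 chr9:116175364-116175613 (minus) and Nrros chr16:32165595-32165844 (minus). Capitals mark letters searched on both strands: CAGAC and GGCGC, which SMAD proteins can bind, and GAGGAAG, the core of sites for the macrophage factor PU.1, including overlapping matches.
Tgfbr1: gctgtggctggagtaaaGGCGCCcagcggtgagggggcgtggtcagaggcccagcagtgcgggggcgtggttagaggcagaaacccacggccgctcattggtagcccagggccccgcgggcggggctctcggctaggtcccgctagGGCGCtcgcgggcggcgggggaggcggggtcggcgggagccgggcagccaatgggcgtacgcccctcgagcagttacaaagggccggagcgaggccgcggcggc
Tgfbr2: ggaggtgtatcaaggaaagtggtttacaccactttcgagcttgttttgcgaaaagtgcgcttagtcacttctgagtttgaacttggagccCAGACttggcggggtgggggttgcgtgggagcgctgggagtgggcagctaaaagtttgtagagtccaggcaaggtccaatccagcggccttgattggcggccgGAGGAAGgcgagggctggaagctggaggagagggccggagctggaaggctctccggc
Nrros: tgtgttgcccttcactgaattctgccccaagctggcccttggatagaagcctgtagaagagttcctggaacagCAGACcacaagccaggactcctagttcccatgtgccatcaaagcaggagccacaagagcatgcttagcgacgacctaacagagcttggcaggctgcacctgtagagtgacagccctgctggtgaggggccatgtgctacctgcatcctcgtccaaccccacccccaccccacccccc
Tgfbr1 held 3 matches to GGCGC, 2 of which overlap, and 0 to the other motifs. A second RefSeq window of Tgfbr1, chr4:47385966-47386215, which is not at the gene's start in the count table, held 1 CAGAC, 1 GAGGAAG and 0 GGCGC at 52.8% GC. Tgfbr2 held 1 CAGAC and 1 GAGGAAG, and Nrros 1 CAGAC. Over the 32851 RefSeq windows of this length, 42.2% held CAGAC, 32.0% GGCGC and 10.6% GAGGAAG. The GC share was 74.8% for Tgfbr1, and 58.4% for Tgfbr2 and Nrros, beside a median of 52.4% over all windows. RefSeq windows were used for 7 of the 10 genes, and Smad7 was left out of this step. A match is a description of letters only.

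Tgfbr1 (chromosome 4, 47353222 to 47414931, plus strand), the type I receptor kinase, rose in both sources. Its day 0 levels were 133, 94.9 and 116 CPM in iPSC-derived libraries and 83.9, 88.3 and 87.8 CPM in bone marrow-derived ones. On day 3 they were 393, 391 and 316 CPM and 280, 191 and 227 CPM. Day 6 levels were 262 to 359.6 CPM and 338 to 422.5 CPM. On day 12 they were 344, 281 and 276 CPM and 492, 412 and 392 CPM. No co-cultured library overlapped day 0 of its source at any time. The rise by day 3 was 1.68 ± 0.16 in iPSC-derived (adjusted p = 5.8e-08) and 1.43 ± 0.16 in bone marrow-derived cells (adjusted p = 5.5e-07). From day 3 to day 12 it rose further in bone marrow-derived cells (0.89 ± 0.16, adjusted p = 0.00058), and in iPSC-derived cells it changed by -0.29 ± 0.16 (adjusted p = 0.3). The day 3 to day 12 changes differed between the sources (-1.18 ± 0.23, iPSC minus bone marrow, adjusted p = 0.0033).

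The order of the sources for Tgfbr1 changed over time. On day 0 it did not overlap, but the difference missed the threshold (0.40 ± 0.16, adjusted p = 0.055; 0.023 without iPSC day 0 replicate 2). On day 3 it was higher in iPSC-derived cells, with no overlap (0.65 ± 0.16, adjusted p = 0.0046). On day 12 it was lower in iPSC-derived cells, again with no overlap (-0.53 ± 0.16, adjusted p = 0.036). The day 12 call ended without iPSC day 12 replicate 2 or 3 (adjusted p = 0.13 and 0.1) or bone marrow day 12 replicate 1 or 2 (0.18 and 0.063), with differences of -0.46, -0.47, -0.42 and -0.56. It also ended with no filter on low counts (adjusted p = 0.071), with only the groups compared (0.09) and with the replicate block (0.055).

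Tgfbr2 (chromosome 9, 116087698 to 116175363, minus strand), the ligand-binding type II receptor, started lower in iPSC-derived cells. Day 0 libraries held 213, 166 and 173 CPM in iPSC-derived cells and 314, 294 and 299 CPM in bone marrow-derived cells, with no overlap (-0.72 ± 0.18, adjusted p = 0.0032). On day 3 they held 604, 664 and 318 CPM and 351, 278 and 307 CPM. All 3 iPSC libraries had left their day 0 range, the third by less than the other two, while the bone marrow libraries overlapped day 0. The change by day 3 was 1.52 ± 0.19 in iPSC-derived (adjusted p = 1.5e-06) and 0.04 ± 0.18 in bone marrow-derived cells (adjusted p = 0.91). These changes differed between the sources by 1.48 ± 0.26 (adjusted p = 0.00015).

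Bone marrow-derived cells raised Tgfbr2 later, to 508, 490 and 493 CPM on day 6 and 690, 562 and 630 CPM on day 12. All 6 of these libraries were above every day 0 and day 3 library. The rise from day 0 was 0.72 ± 0.18 on day 6 (adjusted p = 0.0065) and 1.05 ± 0.18 on day 12 (adjusted p = 0.00012), and from day 3 to day 12 it was 1.01 ± 0.18 (adjusted p = 0.00061). In iPSC-derived cells the day 12 libraries held 810, 642 and 637 CPM (1.92 ± 0.19 over day 0, adjusted p = 5e-08). By day 12 the sources overlapped, with a difference of 0.15 ± 0.18 (adjusted p = 0.7). The day 0 to day 12 changes differed between the sources by 0.87 ± 0.26 (adjusted p = 0.017), a call that ended without iPSC day 12 replicate 1 (0.75, adjusted p = 0.055) and with no scaling factors (0.56, adjusted p = 0.13). The day 3 to day 12 changes differed by -0.61 ± 0.26 (adjusted p = 0.24), and by -0.87 (adjusted p = 0.009) without iPSC day 3 replicate 3.

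The ratio of the receptors moved in opposite directions. Per exon length (reads scaled to library size and kilobases of exon, RPKM), Tgfbr2 was 4.55 to 5.10 times Tgfbr1 in day 0 bone marrow-derived libraries and 1.86 to 2.20 times on day 12. In iPSC-derived libraries the ratio was 2.04 to 2.39 on day 0 and 3.12 to 3.21 on day 12. The ranges of the sources did not overlap on either day, and the source with the higher ratio changed. On day 3 they overlapped, at 1.37 to 2.32 in iPSC-derived and 1.71 to 1.99 in bone marrow-derived libraries. These ratios were not tested.

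**Figure D3:**
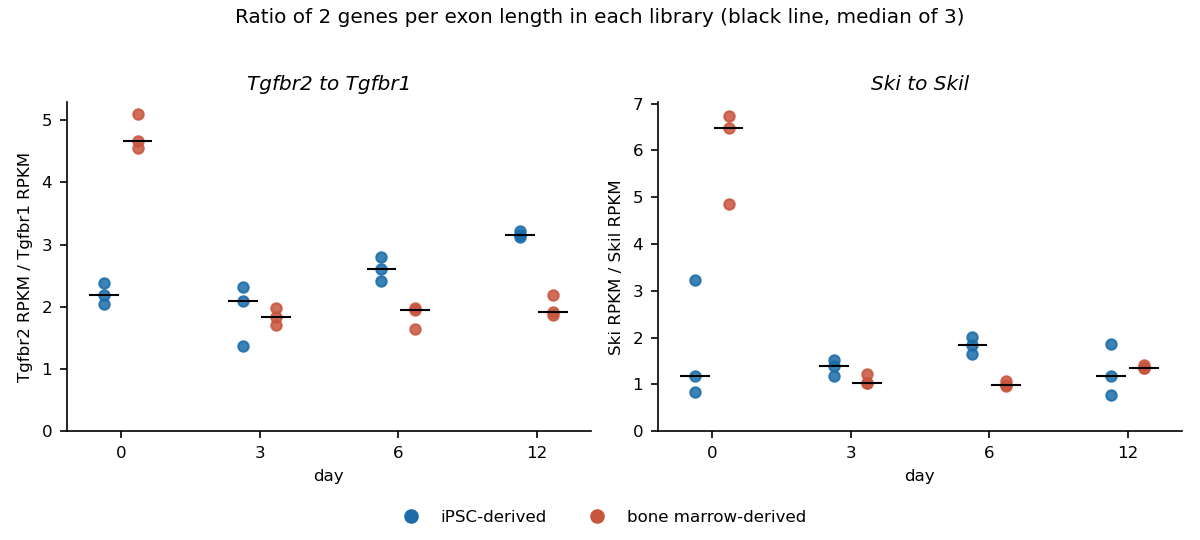
Ratio of RPKM values in each library for Tgfbr2 to Tgfbr1 (left) and Ski to Skil (right), by day; points are libraries and black lines medians of 3. The bone marrow ratio of Tgfbr2 to Tgfbr1 is at 4.55 to 5.10 on day 0 and at 1.64 to 2.20 on days 3 to 12, and its ratio of Ski to Skil falls from between 4.85 and 6.73 to between 0.969 and 1.42.

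Smad3 (chromosome 9, 63646767 to 63757994, minus strand), the receptor-activated transcription factor, also started lower in iPSC-derived cells. Day 0 libraries held 14.3, 15.1 and 9.21 CPM in iPSC-derived and 31.4, 44.8 and 29.4 CPM in bone marrow-derived cells, with no overlap (-1.45 ± 0.30, adjusted p = 0.00043). On day 6 the iPSC-derived libraries held 55.2, 49.3 and 37.4 CPM and on day 12 they held 31.6, 38.4 and 24.96 CPM, all above day 0. The rise was 1.51 ± 0.30 on day 3, 1.88 ± 0.30 on day 6 and 1.30 ± 0.30 on day 12 (adjusted p = 0.00062, 5e-05 and 0.0022). On day 3 replicate 3 held 15.9 CPM, just above the day 0 range, beside 49.4 and 44.7 CPM. In bone marrow-derived cells the day 6 libraries held 64.4, 56.9 and 65.3 CPM (0.82 ± 0.29, adjusted p = 0.047), and day 12 did not pass the test (0.62 ± 0.29, adjusted p = 0.12; 0.026 when only these groups were fitted), although no library overlapped day 0. The day 6 call ended without day 0 replicate 1 or 3 (adjusted p = 0.14 and 0.15) or day 6 replicate 1, 2 or 3 (0.1, 0.07 and 0.12). The source difference in the day 3 change missed the threshold (1.08 ± 0.41, adjusted p = 0.066), and was 1.45 (adjusted p = 0.0021) without iPSC day 3 replicate 3.

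Smad7, the inhibitory SMAD that blocks the type I receptor, stood at low counts. Bone marrow-derived day 0 libraries held 0, 0 and 7 counts, and day 12 libraries 86, 64 and 70 counts, or 8.61, 6.34 and 6.29 CPM. The change was 4.51 ± 0.86 (adjusted p = 0.00032), with all 7 day 0 counts in replicate 3. Without that library day 0 was at 0 counts and the call held (adjusted p = 1e-05). Smad7 also rose on day 3 (3.48 ± 0.85, adjusted p = 0.0043) and day 6 (3.23 ± 0.85, adjusted p = 0.0077). Without that library these changes were 7.98 and 7.74 (adjusted p = 6e-05 and 9e-05), with the same limit. In iPSC-derived cells the day 0 libraries held 1.31, 1.09 and 0.643 CPM and the day 12 libraries 3.83, 3.98 and 3.54 CPM. These ranges did not overlap, but the change of 1.88 ± 0.74 missed the threshold (adjusted p = 0.065; 0.0091 with DESeq2). The source difference in the day 12 change was -2.63 ± 1.10 (adjusted p = 0.097). Without bone marrow day 0 replicate 3 it was -7.10 (adjusted p = 0.00089), a size set by the 0 counts left on day 0.

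Ski (chromosome 4, 155154075 to 155222592, minus strand), a nuclear corepressor that binds SMAD complexes, rose on all 3 days in both sources. Day 0 libraries held 52.7, 59.1 and 68.2 CPM in iPSC-derived and 76.3, 85.04 and 72.1 CPM in bone marrow-derived cells. On day 6 they held 100.6 to 125 and 118 to 127 CPM. On day 12 they held 86.2, 90.8 and 89.5 CPM and 142, 135 and 130 CPM, above day 0 in each source and with no overlap between the sources. The rise was 0.57 ± 0.13 (adjusted p = 0.0018) in iPSC-derived and 0.80 ± 0.13 (adjusted p = 3.7e-05) in bone marrow-derived cells. On day 12 the level was lower in iPSC-derived cells (-0.61 ± 0.13, adjusted p = 0.0019), and 0.051 with no filter on low counts. On day 0 it was also lower (-0.37 ± 0.13, adjusted p = 0.023), a call that ended without iPSC day 0 replicate 1 or 2 or bone marrow day 0 replicate 2 (adjusted p = 0.12, 0.059 and 0.12), with no scaling factors (0.071), no filter (0.23) and only the groups compared (0.1). The bone marrow day 3 rise (0.37 ± 0.13, adjusted p = 0.04) ended without day 0 replicate 1 or 3 or day 3 replicate 1 or 2 (adjusted p = 0.089, 0.13, 0.19 and 0.078), and with no filter (0.2).

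Skil (chromosome 3, 31095058 to 31122577, plus strand), the gene of the related corepressor SnoN and itself a SMAD target, rose in bone marrow-derived cells from a low start and was already high in iPSC-derived cells. Bone marrow-derived libraries went from 27.4, 22.01 and 19.4 CPM on day 0 to 191, 140 and 155 CPM on day 3, 220, 206 and 206 CPM on day 6 and 175, 174 and 166 CPM on day 12. Every co-cultured library was above every day 0 library. The rise was 2.82 ± 0.30 by day 3 (adjusted p = 2.5e-07), 3.20 ± 0.30 by day 6 and 2.90 ± 0.30 by day 12 (adjusted p = 1.8e-07). iPSC-derived libraries held 108, 87.9 and 36.9 CPM on day 0, already above the bone marrow level (1.76 ± 0.29, adjusted p = 4.3e-05), and 126, 202 and 83.5 CPM on day 12. On days 3 and 6 they held 103 to 132 and 103 to 108.5 CPM, with changes of 0.58 ± 0.28 (adjusted p = 0.16; 0.04 without day 0 replicate 1) and 0.44 ± 0.28 (adjusted p = 0.26). The day 12 and day 0 ranges overlapped, and the day 12 rise of 0.82 ± 0.28 (adjusted p = 0.033) ended without day 12 replicate 2 (0.45, adjusted p = 0.27) or day 0 replicate 3 (0.48, adjusted p = 0.14), with no scaling factors (0.66, adjusted p = 0.072) and with only the groups compared (0.85, adjusted p = 0.22). The changes differed between the sources by -2.24 ± 0.40 on day 3 (adjusted p = 0.00021) and -2.08 ± 0.40 on day 12 (adjusted p = 0.00051). By day 12 the source difference in level was -0.32 ± 0.27 (adjusted p = 0.55). On day 6 it was -0.99 ± 0.28 (adjusted p = 0.018), and the adjusted p was 0.052 and 0.05 without iPSC day 6 replicate 2 or 3 and 0.056 without bone marrow day 6 replicate 1.

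Ski was 4.85 to 6.73 times Skil per exon length in day 0 bone marrow-derived libraries and 1.35 to 1.42 times on day 12. In iPSC-derived libraries the ratio was 0.848 to 3.23 on day 0 and 0.784 to 1.87 on day 12, and these ranges overlapped.

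Pmepa1 (chromosome 2, 173224458 to 173276533, minus strand) encodes a membrane protein that sequesters SMADs and is induced by TGF-beta. Each day 0 group held 1 count in all. On day 3 the libraries held 4.31, 6.37 and 1.26 CPM in iPSC-derived and 4.04, 2.97 and 4.01 CPM in bone marrow-derived cells, which overlapped (0.12 ± 0.40, adjusted p = 0.89). Day 6 levels were 14.5, 20.7 and 10.4 CPM and 23.3, 25.2 and 21.6 CPM. These did not overlap, yet the difference did not pass the test (-0.62 ± 0.35, adjusted p = 0.29). On day 12 they were 16.9, 26.98 and 21.02 CPM and 80.0, 90.7 and 114 CPM, lower in iPSC-derived cells by 4.39-fold (-2.13 ± 0.36, adjusted p = 0.0002). The count ratio to day 0 was 109 (95% interval 19.2 to 4359) on day 3 in iPSC-derived cells and 87.8 (15.4 to 3502) in bone marrow-derived cells, intervals that cover counting error only. On day 6 it was 409 (73.1 to 16210) and 559 (99.9 to 22110), and on day 12 it was 608 (109 to 24060) and 2304 (413 to 91040), with adjusted p at most 3e-06 on each day. Without iPSC day 0 replicate 3 or bone marrow day 0 replicate 2, the libraries that held these single counts, the day 0 groups are at 0.

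From day 3 to day 12 Pmepa1 rose in both sources, by 2.44 ± 0.38 in iPSC-derived (adjusted p = 0.00017) and 4.69 ± 0.41 in bone marrow-derived cells (adjusted p = 4e-08). It was the only gene of the 10 called over that interval in iPSC-derived cells, a count near the share of all genes changing (8.89%). In bone marrow-derived cells 4 of 10 rose (Tgfbr1, Tgfbr2, Ski and Pmepa1), beside 8.45%. The Ski call among these 4 ended when any of day 3 replicate 2 or 3 or day 12 replicate 1, 2 or 3 was left out (adjusted p = 0.11, 0.17, 0.11, 0.082 and 0.059), and with no filter on low counts (0.33). The Pmepa1 changes differed by -2.25 ± 0.53 (adjusted p = 0.017), a call that ended without iPSC day 12 replicate 1, iPSC day 3 replicate 2, bone marrow day 3 replicate 2 or bone marrow day 12 replicate 3 (adjusted p = 0.051, 0.087, 0.056 and 0.058). The summed fibroblast markers were also higher on days 6 and 12 than on day 0 in both sources. On day 12 Pmepa1 was higher in the bone marrow-derived libraries while those markers were lower there (111 to 206 against 279 to 483 CPM). The summed astrocyte markers were 65.6 to 93.0 CPM there and 87.2 to 103 CPM in iPSC-derived libraries. The part of such RNA in the rise over time was not tested.

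**Figure D4:**
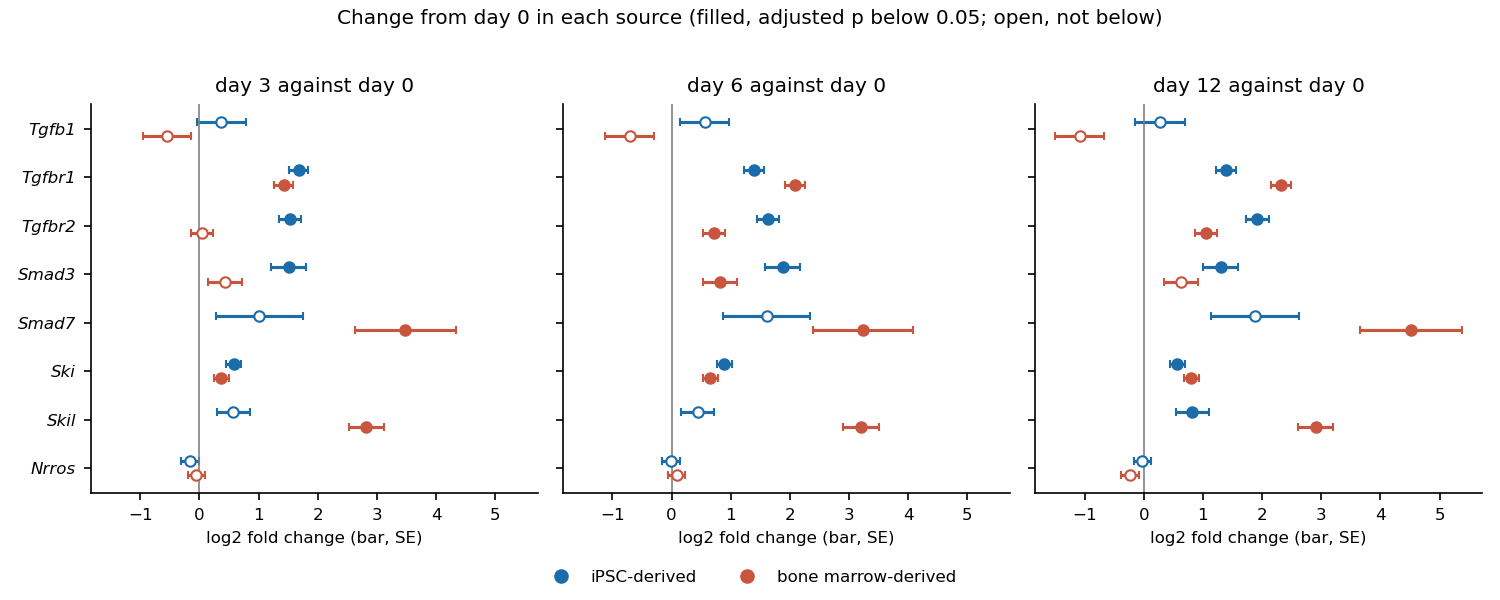
Log2 fold change from day 0 on days 3, 6 and 12 with its SE for the 8 genes other than Tgfb2 and Pmepa1, by source; filled points passed an adjusted p of 0.05. Skil is at 2.82 to 3.20 in bone marrow-derived cells and at 0.44 to 0.82 in iPSC-derived cells, Tgfbr2 is at 0.04 on day 3 in bone marrow-derived cells against 1.52 in iPSC-derived cells, and Nrros lies between -0.23 and 0.09.

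Between the sources, 5 of 10 genes differed on day 0, beside 36.0% of all genes: Skil was higher in iPSC-derived cells and Tgfb1, Tgfbr2, Smad3 and Ski were lower. On that day the summed macrophage markers were also lower in iPSC-derived libraries (7610 to 10450 against 41840 to 44640 CPM), and their part in these differences was not tested. On day 3, 2 genes differed, a count near the share of all genes (17.9%). They were Tgfbr1 and Tgfbr2, each higher in iPSC-derived cells. The Tgfbr2 difference (0.76 ± 0.18, adjusted p = 0.0038) had overlapping libraries, and its adjusted p was 0.067 when only the day 3 groups were fitted. Skil alone differed on day 6, again near the share of all genes (13.2%). On day 12, 3 genes differed (Tgfbr1, Ski and Pmepa1), beside 9.77%, each lower in iPSC-derived cells. Tests of the difference between sources in the change from day 0 called Tgfbr2 and Skil on day 3, near the share of all genes (20.5%). On day 12 these tests called Tgfbr1, Tgfbr2 and Skil, also near that share (20.1%). For the change from day 3 to day 12 they called Tgfbr1 and Pmepa1, beside 3.19%.

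Per exon length the 3 highest genes on day 12 were the same in both sources. On day 0 Nrros was highest, at 100.3 ± 18.03 RPKM (SD, n = 3) in iPSC-derived and 108 ± 3.04 RPKM in bone marrow-derived cells, followed by Tgfbr2 at 38.4 ± 5.34 and 63.2 ± 2.09 RPKM. On day 12 Tgfbr2 was highest, at 145.5 ± 20.5 and 131 ± 13.4 RPKM, followed by Nrros at 98.8 ± 4.12 and 92.1 ± 9.11 RPKM and Tgfbr1 at 45.95 ± 5.87 and 66.1 ± 8.14 RPKM. Ski followed at 16.0 ± 0.425 and 24.4 ± 1.13 RPKM. Skil (14.15 ± 6.17 RPKM) did not differ from Ski beyond its spread in iPSC-derived cells. In bone marrow-derived cells Pmepa1 (19.3 ± 3.56 RPKM) and Skil (17.7 ± 0.501 RPKM) lay within the spread of Pmepa1. Smad3 and Tgfb1 stood at 5.71 ± 1.22 and 2.26 ± 0.715 RPKM in iPSC-derived and 9.80 ± 1.00 and 2.25 ± 0.262 RPKM in bone marrow-derived cells. Smad7 and Tgfb2 were lowest, at 0.836 ± 0.0494 and 0.274 ± 0.178 RPKM and at 1.57 ± 0.293 and 0.353 ± 0.103 RPKM.

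**Figure D5:**
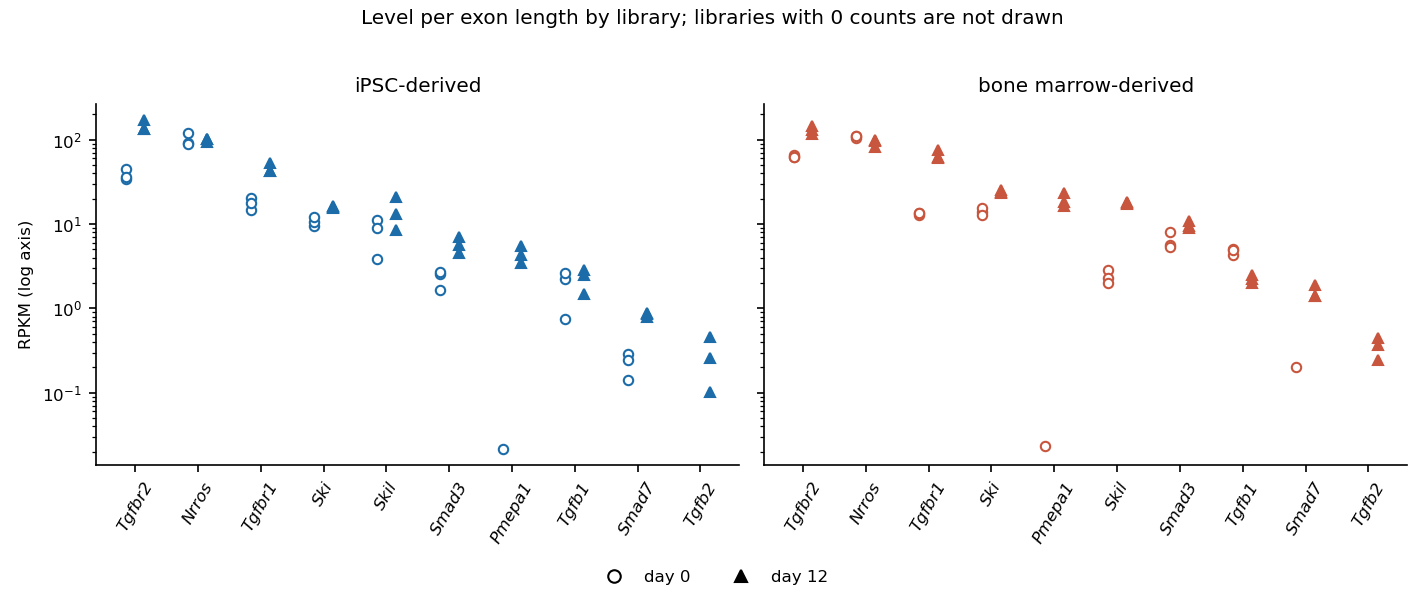
Level per exon length (RPKM, log axis) of the 10 genes in each library on day 0 (open circles) and day 12 (filled triangles), by source and ordered by the day 12 mean; libraries with 0 counts are not drawn. On day 12 Tgfbr2 (145.5 and 131 RPKM) and Nrros (98.8 and 92.1 RPKM) lead in both sources, and Smad7 and Tgfb2 come last.

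Lists of other known genes of the pathway were compared between day 12 and day 0, where 24.7% (iPSC) and 23.8% (bone marrow) of all genes changed. Listed genes with few counts on day 0 passed the filter through other groups and could hardly be called lower. Of 11 tested genes for other ligands and latency proteins, 3 rose and 1 fell in iPSC-derived cells (median log2 fold change 1.87) and 3 rose and 2 fell in bone marrow-derived cells (1.19). Among the 11, 3 (iPSC) and 4 (bone marrow) had 3 counts or fewer on day 0 or day 12. Thbs1, whose product thrombospondin can open latent TGF-beta, went in opposite directions. It rose from 12.9 ± 4.12 to 47.0 ± 11.7 CPM in iPSC-derived cells (1.87 ± 0.25, adjusted p = 4.4e-06) and fell from 781 ± 37.0 to 286 ± 10.4 CPM in bone marrow-derived cells (-1.45 ± 0.23, adjusted p = 4.1e-05). Gdf15, a distant member of the ligand family, fell in both (-3.63 ± 0.41, adjusted p = 4.2e-07, and -1.51 ± 0.38, adjusted p = 0.0044). Tgfb3, the third isoform, had 0 counts on day 0 in bone marrow-derived cells and 95 counts on day 12 (adjusted p = 0.00028), and 24 and 61 counts in iPSC-derived cells (adjusted p = 0.26).

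Of 5 tested integrin genes, 3 rose and 0 fell in each source, with medians of 2.31 and 1.24. Over all genes 24.7% (iPSC) and 23.8% (bone marrow) changed. Itgav, the alpha-v chain shared by the integrins that open latent TGF-beta, rose by 2.31 ± 0.34 (adjusted p = 3.6e-05) in iPSC-derived and 3.24 ± 0.36 (adjusted p = 9.5e-07) in bone marrow-derived cells. Its partner chain gene Itgb5 rose from 43.1 ± 11.3 to 220 ± 21.9 CPM and from 150 ± 15.4 to 355 ± 56.5 CPM. Itgb8, another partner chain, had 1 count on day 0 in each source and 58 and 75 counts on day 12. Its calls (adjusted p = 0.046 and 0.043) ended when iPSC day 0 replicate 1, 2 or 3 or day 12 replicate 2 or 3 was left out (adjusted p 0.14, 0.073, 0.12, 0.096 and 0.082), with no scaling factors (0.051) or only the groups compared (0.097), and when bone marrow day 0 replicate 1, 2 or 3 or day 12 replicate 1 or 3 was (0.13, 0.076, 0.13, 0.063 and 0.15).

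Other receptors moved both ways, 3 of 11 up and 2 down in iPSC-derived cells and 2 up and 1 down in bone marrow-derived cells, with medians of 0.32 and 0.052. Over all genes 24.7% (iPSC) and 23.8% (bone marrow) changed, and the bone marrow count lies near its share. Cd109, a co-receptor that dampens TGF-beta signalling, fell from 29.96 ± 10.4 to 5.01 ± 2.13 CPM and from 9.06 ± 4.79 to 1.97 ± 1.20 CPM (adjusted p = 0.0003 and 0.002). Acvrl1, a type I receptor best known from endothelium, rose in bone marrow-derived cells (1.45 ± 0.25, adjusted p = 8.6e-05) and changed by -0.09 ± 0.24 in iPSC-derived cells. Its changes differed between the sources (-1.54 ± 0.34, adjusted p = 0.0019). Bmpr1a, a receptor for bone morphogenetic proteins, rose in iPSC-derived cells from 18.2 ± 8.94 to 62.2 ± 31.2 CPM (adjusted p = 0.0056). In bone marrow-derived cells it went from 5 to 100 counts (3.86 ± 0.77, adjusted p = 0.00056), with all 5 day 0 counts in replicate 3.

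Other SMADs and their partners rose in 5 of 11 cases in iPSC-derived cells (median 0.57) and in 1 of 11 in bone marrow-derived cells (median -0.001), with 0 falls. Over all genes 24.7% (iPSC) and 23.8% (bone marrow) changed. The difference between the sources was called for 4 of the 11, beside 20.1% of all genes. Tgfbrap1, a receptor-binding protein gene, rose from 27.8 ± 5.94 to 78.2 ± 10.3 CPM in iPSC-derived cells and stood at 67.8 ± 2.95 and 60.8 ± 7.09 CPM in bone marrow-derived cells (difference of the changes 1.65 ± 0.28, adjusted p = 0.00013). Crebbp, a SMAD coactivator gene, did likewise, with 1.18 ± 0.20 in iPSC-derived cells and a difference of 1.18 ± 0.28 (adjusted p = 0.003). Dab2, an adaptor that links the receptors to SMADs, rose in iPSC-derived cells (1.18 ± 0.21, adjusted p = 0.00016). Its bone marrow rise (0.58 ± 0.21, adjusted p = 0.042) ended when any of the 6 libraries was left out (adjusted p 0.06 to 0.14).

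Other inhibitors and ubiquitin enzymes had 2 rises and 1 fall among 16 in iPSC-derived cells and 3 rises and 2 falls in bone marrow-derived cells, with medians of -0.19 and -0.11. These counts, 3 and 5 of 16, lie near the shares of all genes that changed (24.7% and 23.8%). Fkbp1a, whose product keeps the type I receptor inactive, fell from 353 ± 32.9 to 167 ± 14.6 CPM (-1.08 ± 0.12, adjusted p = 3.1e-07) and from 268 ± 4.10 to 162 ± 14.03 CPM (-0.73 ± 0.12, adjusted p = 5.1e-05). Wwp1, a ubiquitin ligase gene, fell in bone marrow-derived cells (-1.16 ± 0.16, adjusted p = 6.2e-06) and rose in iPSC-derived cells (0.58 ± 0.16, adjusted p = 0.0084). That rise ended without day 0 replicate 1 or 2 (adjusted p = 0.06 and 0.065) and with only the groups compared (0.087). Strap, an adaptor that works with Smad7, rose in bone marrow-derived cells (0.62 ± 0.14, adjusted p = 0.0024) and changed by -0.25 ± 0.14 in iPSC-derived cells (adjusted p = 0.21).

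Of 16 genes listed as textbook TGF-beta targets, 9 rose in each source, with 1 fall in iPSC-derived cells and 0 in bone marrow-derived cells, and medians of 1.92 and 1.66. Over all genes 24.7% (iPSC) and 23.8% (bone marrow) changed. In each source 5 of the 16 had 3 counts or fewer on day 0 or day 12. Some of the 16, Itgb8 among them, also stand in the lists above, so the lists are not independent. Junb rose from 125 ± 35.2 to 656 ± 306 CPM and from 120 ± 13.7 to 363 ± 23.1 CPM (adjusted p = 4.1e-07 and 5.2e-05). Id2, a repressor of basic helix-loop-helix factors, rose by 2.14 ± 0.22 in bone marrow-derived cells (adjusted p = 1e-07) and by 0.70 ± 0.21 in iPSC-derived cells (adjusted p = 0.015). The latter call ended without day 12 replicate 1 or 2 or day 0 replicate 3 (adjusted p = 0.062, 0.063 and 0.069). Its relative Id3 rose from 0.400 ± 0.276 to 7.71 ± 1.32 CPM in iPSC-derived cells (adjusted p = 2.8e-05) and changed by 0.55 ± 0.51 in bone marrow-derived cells (adjusted p = 0.49).

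Microglial genes that need TGF-beta rose in 7 of 10 cases in iPSC-derived and 6 of 10 in bone marrow-derived cells, with 0 falls and medians of 3.34 and 3.26, the latter 2.95 with genes of 3 counts or fewer at their bound. Such genes numbered 2 of 10 in iPSC-derived and 3 of 10 in bone marrow-derived cells. Over all genes 24.7% and 23.8% changed. Fcrls, an Fc receptor-like gene, rose by 5.08 ± 0.30 in iPSC-derived cells, and its change exceeded that in bone marrow-derived cells by 2.36 ± 0.37 (adjusted p = 5.9e-05). Olfml3, a secreted glycoprotein gene, went from 16.9 ± 8.77 to 256 ± 76.0 CPM and from 0.331 ± 0.193 to 126 ± 18.1 CPM (adjusted p = 3.4e-08 and 2.2e-10).

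Genes whose pattern was most like each of the 10 were ranked by Pearson correlation of log2 CPM over the 8 group means, among genes of at least 20 CPM in a group. These correlations are descriptions across groups that share a time course. Tgfbr2 was most like Hsd17b4 (0.98), the microglial receptor gene P2ry12 (0.98) and Fcrls (0.97), and Tgfbr1 most like Mtus1 (0.98), Rtcb (0.96) and Fabp7 (0.96). Smad3 was closest to Wnk1 (0.98), Plxdc1 (0.98) and Marcks (0.97), and Smad7 to Gspt1 (0.97), Nedd4 (0.97) and the microglial gene Tmem119 (0.96). For Ski the list was Dpy19l1 (0.97), Rai1 (0.97) and Tmem221 (0.95), and for Skil Cd38 (0.98), Inpp4b (0.96) and Tlr13 (0.96). Tgfb2 was closest to the basement membrane collagen genes Col4a1 (0.98) and Col4a2 (0.98) and to Mest (0.98). Pmepa1 was closest to Plat (0.99), which encodes tissue plasminogen activator, Mest (0.98) and Dusp6 (0.98). Tgfb1 was closest to Nisch (0.98), Uvssa (0.97) and Prkag2 (0.96). Nrros, which hardly varied, had the weakest best matches, Mtmr1 (0.90), Yipf4 (0.89) and Tapbpl (0.88). Among the 10 genes themselves, Tgfb2 and Pmepa1 were most alike (0.98), and Tgfb1 and Smad7 most opposed (-0.45).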

How the data were processed

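RNA of 24 macrophage cultures, 8 groups of 3 by the labels, was made into SMART-seq v2 libraries, per the labels' protocols. The authors deposited 1 table of raw read counts per gene, with an exon length for each row. The submitters' processing notes name STAR, featureCounts, mm10 and GRCm38, and per the file headers featureCounts 1.5.0-p1 counted read pairs over GENCODE vM9 genes without a strand setting, so reads from a gene and its antisense partner cannot be told apart. Symbols were matched by Ensembl ID (47224 of 47643 rows). The 10 genes, the pathway lists and the markers were chosen with earlier results of these data known.

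The analysis used R 4.3.3 and edgeR 4.0.16. Low genes were removed by filterByExpr with a minimum count of 10 and a minimum total of 15, leaving 15000 genes; counts then had TMM scaling and 1 robust quasi-likelihood fit over all 24 libraries with 15 contrasts. Calls were made at a Benjamini-Hochberg adjusted p below 0.05 over those genes. The SE of a log2 change was derived as its size divided by the square root of the F statistic of its quasi-likelihood test. It is not a separately fitted error and is unreliable at few counts. The fit was tested on simulated data. CPM used TMM-scaled library sizes, and RPKM divided these by exon length. With 0 counts in a group the fold is a bound from a floor of 3 counts over the group; with 1 to 3 it is a count ratio with an exact 95% interval. Alternatives were DESeq2 1.42.0, its size factors (RLE), no scaling factors, no filter on low counts, a replicate block, only the groups compared, and leaving out each library. The 10 genes are named throughout. Of each list the 3 genes with the lowest adjusted p on day 12 in either source are named (1 of them is not reported here), and for each of the 10 genes the 3 most correlated genes. RefSeq windows were searched for motifs on both strands.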

Additional observations from a re-analysis of the deposited data

Results flagged for a closer look

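The change over time differed between the sources, by a test of the difference itself, in 7 cases among the 10 genes (values are log2 changes, iPSC minus bone marrow). Against day 0 the tests called 2 of 10 genes on day 3 and 3 on day 12. Both counts lie near the shares of all genes called, 20.5% and 20.1%. From day 3 to day 12 the tests called 2 of 10, beside 3.19% of all genes. Tgfbr2 differed by 1.48 ± 0.26 on day 3 and by 0.87 ± 0.26 on day 12 against day 0. Skil differed by -2.24 ± 0.40 and -2.08 ± 0.40 on the same days. Tgfbr1 differed by -0.93 ± 0.23 on day 12 against day 0 (adjusted p = 0.0044) and by -1.18 ± 0.23 from day 3 to day 12. Pmepa1 differed by -2.25 ± 0.53 from day 3 to day 12. The Skil and Tgfbr1 calls held in each setting run, the Tgfbr2 day 3 call too, the Pmepa1 call ended without single libraries named in the results, and the Tgfbr2 day 12 call ended without iPSC day 12 replicate 1 (0.75, adjusted p = 0.055) and with no scaling factors (0.56, adjusted p = 0.13).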

How the results depend on the processing

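Leaving out 1 library at a time moved the number of the 10 genes called, from day 0, between 5 and 6 (day 3), 6 and 6 (day 6) and 6 and 7 (day 12) in iPSC-derived cells, and between 4 and 6, 7 and 8, and 7 and 7 in bone marrow-derived cells. From day 3 to day 12 it stayed at 1 and moved between 3 and 4. Between sources it moved between 3 and 6, 2 and 3, 0 and 1, and 2 and 3 (days 0, 3, 6, 12). For differences of changes it moved between 2 and 3 (day 3), 2 and 4 (day 12) and 1 and 3 (day 3 to 12). Fitting only the groups compared left 1 gene called between sources on day 3. Same-numbered replicates had correlated deviations of -0.0545 to 0.161 over 36 pairs; 4 pairs, all among co-cultured iPSC-derived groups, were over 0.1. Different-numbered pairs ran from -0.205 to 0.106, both among co-cultured iPSC-derived groups. These values do not exclude a pairing in that source. No label ties the numbers to a batch, so the main fit was unpaired. The replicate block is the fit with same-numbered replicates matched within each source. With the replicate block 7, 6, 7 and 1 genes were called in iPSC-derived cells, 5, 8, 8 and 4 in bone marrow-derived cells, 4, 2, 1 and 2 between sources, and 3, 3 and 2 for differences of changes. The block ended the calls of Ski in bone marrow-derived cells on day 3 (0.37, adjusted p = 0.05), of Tgfb1 on day 0 (-1.09, 0.15) and Tgfbr1 on day 12 (-0.58, 0.055) between sources, and of Itgb8 in bone marrow-derived cells (adjusted p = 0.054). It added Skil on day 3 in iPSC-derived cells (0.66, 0.046), Smad3 on day 12 in bone marrow-derived cells (0.64, 0.037) and the difference of the Smad3 changes on day 3 (1.00, 0.026). With no scaling factors the median of all genes shifted by over 0.1 in several comparisons (bone marrow day 12 from 0.04 to 0.22, difference of day 12 changes from -0.02 to -0.31).

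Each log2 change that reversed its direction was uncalled. With RLE size factors and with DESeq2 these were Nrros in iPSC-derived cells on day 6 (0.04) and day 12 (0.01), Tgfb1 between sources on day 12 (0.00) and Crebbp in bone marrow-derived cells (0.02). With no filter they were Nrros on both days (0.00) and Crebbp (0.00), and with only the groups compared Nrros on day 12 (0.00) and Crebbp (0.01). With no scaling factors they were Ski from day 3 to 12 in iPSC-derived cells (0.05), Nrros in bone marrow-derived cells on day 3 (0.03), between sources Pmepa1 on day 3 (-0.08), Tgfb2 (-0.02) and Smad7 (-0.01) on day 6, and Tgfb1 (-0.21), Tgfbr2 (-0.08) and Nrros (-0.12) on day 12, differences of changes of Tgfbr1 (-0.02) and Ski (-0.06) on day 3 and Nrros on day 12 (-0.09), and in bone marrow-derived cells Tgfbrap1 (0.01) and Crebbp (0.17). With the replicate block they were, between sources, Pmepa1 on day 3 (-0.01), Tgfb1 (0.09) and Tgfb2 (-0.55) on day 6 and Nrros on day 12 (-0.01), and Crebbp (0.00). The cause was not tested.

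Leaving out 1 library also reversed uncalled changes, whose ranges were, in iPSC-derived cells, -0.47 to 0.69 (Tgfb1) and -0.24 to 0.00 (Nrros) on day 3, -0.23 to 0.15 (Nrros) on day 6, -0.10 to 0.60 (Tgfb1), -0.11 to 0.13 (Nrros) and -0.23 to 0.18 (Acvrl1) on day 12, and -0.40 to 0.76 (Tgfb1), -0.58 to 0.06 (Smad3) and -0.15 to 0.50 (Skil) from day 3 to 12. In bone marrow-derived cells they were -0.05 to 0.12 (Tgfbr2) and -0.13 to 0.00 (Nrros) on day 3, -0.08 to 0.07 (Crebbp) on day 12 and -0.01 to 0.22 (Skil) from day 3 to 12. Between sources they were -1.44 to 0.55 (Tgfb2), -0.64 to 0.00 (Smad3) and -0.36 to 0.56 (Pmepa1) on day 3, -0.23 to 0.09 (Tgfb1), -0.36 to 0.62 (Tgfb2) and -0.16 to 0.36 (Smad7) on day 6, and -0.18 to 0.26 (Tgfb1) and -0.92 to 0.04 (Tgfb2) on day 12. Differences of changes were -0.19 to 0.05 (Nrros, day 3), and -0.90 to 1.11 (Tgfb2), -0.65 to 0.18 (Smad7) and -0.22 to 0.42 (Skil) from day 3 to 12. Tgfb2, Pmepa1 and Smad7 rested on few counts on day 0, which limits their changes.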
